A study of Homo sapiens with 11 samples.

Results

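The 5 control libraries of the series hold small RNA from SH-SY5Y cells, a human neuroblastoma line that was derived from the SK-N-SH line and grows neurites under all-trans retinoic acid (ATRA). They were selected by their labels, as the untreated libraries of both experiments, and are 5 of 11 libraries. The 3 co-treatment controls and the 2 pre-treatment controls were all differentiated with ATRA for 7 days and received no hydrogen peroxide (H2O2). The other 6 libraries, used here only for 1 comparison, are 3 co-treatment libraries that received 10 µM H2O2 together with ATRA for 7 days and 3 pre-treatment libraries that received 10 µM H2O2 for 72 h before 7 days of ATRA. Whether the pre-treatment controls were also held in culture for 72 h before ATRA is not given in the sources used here. The series' design text describes biological triplicates and names 1 sample as an outlier that was left out. The line is tumour-derived, and no undifferentiated cells were measured, so the values describe differentiated cells without a starting level. Both experiments were counted over the same 2576 mature miRNAs, and any batch between the experiments cannot be told apart from the experiment itself.

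A miRNA is cut from a hairpin transcript by Drosha and Dicer, and each hairpin can give a mature product from its 5p and from its 3p arm, of which usually 1 is loaded into an Argonaute protein and the other is degraded. The loaded miRNA pairs with target mRNAs through its seed, bases 2 to 8 from its 5′ end, so miRNAs with the same seed form a family with overlapping targets. Neural tissue is known for the let-7 family, which rises as cells leave the cycle, and for neuron-enriched miRNAs such as miR-9, miR-124, miR-128, miR-137 and miR-132, while members of the miR-17-92 cluster and its paralogs are driven by MYC genes in neuroblastoma.

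The sequences of the miRNAs that carry the results follow, as RefSeq gives them in its GRCh38.p14 table, with the seed in capitals. The first set shares the miR-17 seed and shows why counts of miR-93-5p, miR-20a-5p, miR-17-5p and miR-106b-5p were summed.
miR-93-5p: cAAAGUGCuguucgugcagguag
miR-20a-5p: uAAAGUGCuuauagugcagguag
miR-17-5p: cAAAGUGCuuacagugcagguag
miR-106b-5p: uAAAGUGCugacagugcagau
The next sets are the seeds of the other large families: miR-25 with miR-92a, let-7, miR-125, miR-191, miR-99 and miR-26.
miR-25-3p: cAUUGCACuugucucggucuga
miR-92a-3p: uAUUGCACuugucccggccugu
let-7b-5p: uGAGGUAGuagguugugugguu
let-7i-5p: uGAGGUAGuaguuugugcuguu
let-7e-5p: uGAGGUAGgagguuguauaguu
miR-125a-5p: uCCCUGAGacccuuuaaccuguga
miR-191-5p: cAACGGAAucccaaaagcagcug
miR-99b-5p: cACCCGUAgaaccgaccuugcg
miR-99a-5p: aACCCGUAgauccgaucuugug
miR-26b-5p: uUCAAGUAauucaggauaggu
miR-26a-5p: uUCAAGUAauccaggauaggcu
The opposite arms of miR-106b and of miR-1307 are shown because their balance differed most visibly between libraries, and miR-760 because it had the smallest p between the control groups.
miR-106b-3p: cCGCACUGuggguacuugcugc
miR-1307-5p: uCGACCGGaccucgaccggcu
miR-1307-3p: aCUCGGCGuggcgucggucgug
miR-760: cGGCUCUGggucugugggga

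The co-treatment controls 1, 2 and 3 held 5787956, 8424667 and 7709593 miRNA counts, and the pre-treatment controls 1 and 2 held 6935876 and 7287066. Of the 2576 miRNAs, between 877 and 937 were above 3 counts in a library, 672 were above 3 counts in all 5, and 1050 had no count in any. At these depths 3 counts correspond to 0.356 to 0.518 CPM (counts scaled to a common library total), a floor that covers counting error only. The pre-treatment control 1 stood apart from the other 4 libraries. Its log2 CPM values differed from those of pre-treatment control 2 by a median of 0.82 over 857 miRNAs, against 0.418 to 0.551 between co-treatment controls. Its Pearson r with the other libraries, across miRNAs that are not independent replicates, was 0.899 to 0.935, against 0.977 to 0.985 within the co-treatment controls and 0.953 to 0.965 between these and pre-treatment control 2. No library pair agreed within sampling noise, so each library was counted once.

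The miRNome was led by a few miRNAs. Those with a mean of at least 1000 CPM numbered 91 and held 94.2 to 95.6% of the counts of a library, and 21 had a mean of at least 10000 CPM. The most abundant was miR-10b-5p, a miRNA encoded in the HOXD cluster, with 124165, 114836 and 117054 CPM in the co-treatment controls and 63269 and 166126 CPM in the pre-treatment controls. It ranked first in 4 libraries and in place 4 in pre-treatment control 1. The second, miR-93-5p, a member of the miR-17 family that targets cell cycle inhibitors, held 86411, 110128 and 97277 CPM in co-treatment and 80713 and 123716 CPM in pre-treatment controls. Its neighbour in the same primary transcript, miR-25-3p, held 65719, 68316 and 83094 CPM against 51893 and 80175 CPM. For each of these 3 miRNAs the groups overlapped.

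The next miRNAs by mean were let-7b-5p and miR-125a-5p, both linked to the timing of differentiation. The let-7b-5p level was 51744, 60525 and 43676 CPM in co-treatment controls, and 108976 and 59802 CPM in pre-treatment controls. The miR-125a-5p level was 37797, 54361 and 30230 CPM in co-treatment controls, and it was both the most abundant miRNA of pre-treatment control 1, at 149025 CPM, and the ninth of pre-treatment control 2, at 26055 CPM. The pre-treatment controls thus lay on opposite sides of the co-treatment controls. Sixth was miR-191-5p, a broadly expressed miRNA, at 33095, 43520 and 41234 CPM against 45310 and 29754 CPM. These 6 miRNAs (miR-10b-5p, miR-93-5p, miR-25-3p, let-7b-5p, miR-125a-5p and miR-191-5p) were the ones found among the 10 most abundant in every library. Among the top 20 of every library were 13 miRNAs, and among the top 50 of every library 35.

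**Figure D1:**
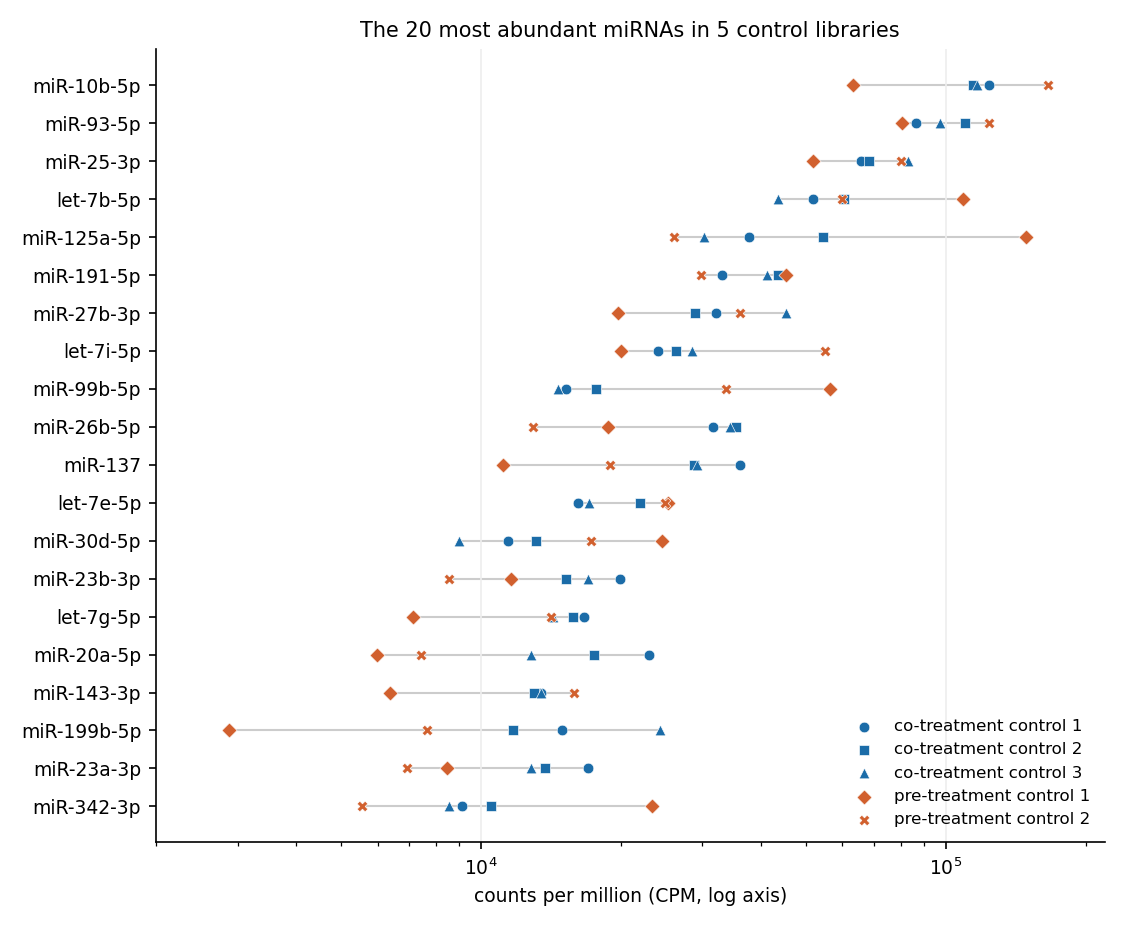
CPM of the 20 most abundant miRNAs on a log axis, 1 point per control library, with a grey line from the lowest to the highest library (blue, co-treatment, n = 3, and orange, pre-treatment, n = 2). The points of miR-93-5p and miR-191-5p lie close together, those of miR-125a-5p and miR-199b-5p spread widely, and for miR-99b-5p, miR-26b-5p and miR-137 the colours do not overlap.

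Places 7 to 20 went to miR-27b-3p, let-7i-5p, miR-99b-5p, miR-26b-5p, miR-137, let-7e-5p, miR-30d-5p, miR-23b-3p, let-7g-5p, miR-20a-5p, miR-143-3p, miR-199b-5p, miR-23a-3p and miR-342-3p, with means from 32506 down to 11428 CPM. In the order of the 20, the range of each miRNA over the 5 libraries overlapped that of its neighbours. Several of them differed between the experiments. The miR-99b-5p level was 15256, 17718 and 14630 CPM in co-treatment and 56550 and 33747 CPM in pre-treatment controls. The neuron-enriched miR-137 ran the other way, at 36172, 28696 and 29240 CPM against 11148 and 18959 CPM. The growth-restraining miR-26b-5p held 31636, 35407 and 34351 CPM against 18824 and 12954 CPM, and miR-20a-5p of the miR-17-92 cluster 23052, 17519 and 12859 CPM against 5997 and 7444 CPM. In each of these the groups did not overlap. Of the 20 leading miRNAs of each group, 16 were shared. The co-treatment set alone held miR-199b-5p, miR-20a-5p, miR-21-5p and miR-23a-3p, and the pre-treatment set alone miR-30d-5p, miR-30e-5p, miR-320a and miR-342-3p.

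The 10 most abundant miRNAs took 50.2, 56.0 and 53.6% of the counts in the co-treatment controls and 61.4 and 62.4% in the pre-treatment controls. The groups did not overlap, with a difference of 8.64 percentage points, but 3 against 2 libraries allow no two-sided exact permutation p below 0.2, and p was 0.2. The effective number of miRNAs, the exponential of the Shannon entropy of the counts, was 52.6, 45.7 and 48.5 against 39.2 and 37.1 (exact permutation p = 0.2). The number detected above 3 counts did not separate the groups, at 877, 921 and 884 against 937 and 896 (exact permutation p = 0.4).

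The label of neuron-like cells was compared with lists of cell type miRNAs. Of 28 neuronal miRNAs, 23 passed the filter on low counts, and together they took 3.71 to 4.55% of counts in co-treatment and 1.84 and 2.73% in pre-treatment controls, mostly through miR-137. The miR-132-3p that neuronal activity induces was at 19680, 26323 and 14582 counts in co-treatment and 23133 and 29461 in pre-treatment controls, and miR-128-3p, enriched in brain, at 9145, 13916 and 13944 against 8016 and 8556. The most widely used marker of mature neurons, miR-124-3p, was at the floor, with 2, 2, 0, 2 and 0 counts, and miR-9-5p of neural progenitors had 31, 24, 46, 25 and 35. Of these defining neural miRNAs, miR-124-3p was thus at the floor in every library and miR-9-5p was low but above it. The latter belongs to the miRNAs of several identical hairpins described further on, as do miR-128-3p, miR-138-5p, miR-218-5p and miR-219a-5p of this list. No reference sequence was matched for miR-124-3p, so its hairpins were not counted. Whether the same limit holds for its counts was not tested. In bulk libraries such as these, fewer cells of a type and less RNA per cell cannot be told apart. The neuroendocrine miR-375 was present at 19132, 24604, 13649, 19808 and 37792 counts, in the order co-treatment 1 to 3 and pre-treatment 1 and 2, and the neuroendocrine list of 6 took 0.284 to 0.596%.

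Lists of other cell types were mostly near 0. Erythroid miRNAs took at most 0.000829% of counts, muscle miRNAs at most 0.00499%, and 14 of 16 miRNAs of pluripotent cells had at most 3 counts in every library. The liver miRNA miR-122-5p was at 1529, 1135 and 2147 counts in co-treatment and 689 and 1712 in pre-treatment controls. The leukocyte list took 0.00274 to 0.0129% and the epithelial list 0.00663 to 0.0216%, both highest in pre-treatment control 1. In that library the myeloid miR-223-3p had 540 counts against 7, 4, 3 and 4 in the others, and the epithelial miR-205-5p had 1007 against 10, 20, 12 and 32. Both miRNAs thus set 1 library apart from 4. The high epithelial share of that library came mostly from miR-205-5p. Of the 7 epithelial miRNAs tested, miR-205-5p was the 1 with a higher level in pre-treatment controls, and 6 were lower. The endothelial miR-126 arms took 1.20 to 1.78% in co-treatment and 0.480 and 1.00% in pre-treatment controls, and the fibroblast and smooth muscle list (miR-143, miR-145, miR-199a, miR-199b and miR-214) took 2.75 to 4.03% and 1.37 and 2.60%. The source of these miRNAs in a single line was not tested.

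Counts were then summed over miRNAs with the same seed. The sequences of 2262 of the 2576 names (87.8%) were matched, which covered 75.6, 78.6 and 76.7% of counts in the co-treatment and 85.9 and 74.3% in the pre-treatment controls. Of the 20 leading miRNAs, miR-10b-5p, miR-137, miR-30d-5p and miR-199b-5p are named only. The largest family was let-7, with 12.8, 14.5 and 11.9% of counts in co-treatment and 17.8 and 17.1% in pre-treatment controls, through let-7b-5p, let-7i-5p, let-7e-5p, let-7g-5p and let-7c-5p. The family of miR-93-5p, miR-20a-5p and miR-17-5p took 11.9, 13.3 and 12.1% against 8.85 and 13.4%. The family of miR-25-3p and miR-92a-3p took 6.84, 7.10 and 8.46% against 5.60 and 8.21%. Of these 3 families, let-7 was the one whose shares did not overlap between the groups. Its members did not rise together. In pre-treatment control 1 let-7b-5p was high, at 108976 CPM, while let-7i-5p, at 19994 CPM, was below every co-treatment control. In pre-treatment control 2 let-7i-5p was high, at 55024 CPM, while let-7b-5p, at 59802 CPM, lay within the co-treatment range.

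Most families were carried by 1 member. The miR-125 family was nearly all miR-125a-5p, at 3.80, 5.45 and 3.04% against 14.9 and 2.62%, with 1 library far from the other 4. The miR-99 family, with miR-99b-5p far above miR-99a-5p and miR-100-5p, took 1.89, 2.104 and 1.74% against 5.83 and 3.96%. The families of miR-26b-5p (3.17, 3.54 and 3.44% against 1.88 and 1.30%), of miR-23b-3p and miR-23a-3p (3.70, 2.90 and 2.99% against 2.01 and 1.55%), of miR-15b-5p and miR-16-5p (1.83, 1.62 and 1.62% against 1.18 and 0.818%) and of miR-148b-3p (1.39, 1.37 and 1.76% against 0.811 and 1.30%) were each lower in both pre-treatment controls. For miR-148b-3p the groups overlapped once TMM scaling was applied. The other large families were those of miR-191-5p, miR-27b-3p and miR-143-3p, with group means of 3.93 and 3.75%, 4.10 and 3.02%, and 1.33 and 1.11% in co-treatment and pre-treatment, and their groups overlapped.

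**Figure D2:**
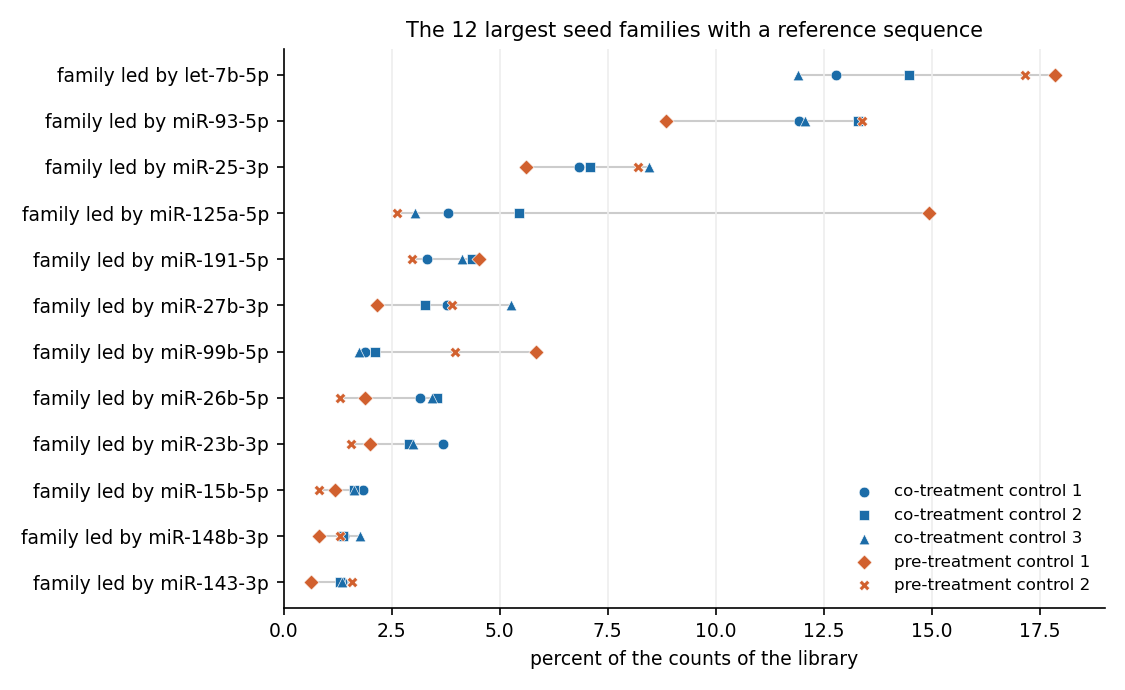
Percent of the counts of each library in the 12 largest seed families, 1 point per library (blue, co-treatment, n = 3, and orange, pre-treatment, n = 2), with a grey line from the lowest to the highest. The families led by let-7b-5p, miR-99b-5p, miR-26b-5p, miR-23b-3p, miR-15b-5p and miR-148b-3p separate the groups, and the family led by miR-125a-5p has 1 point far from the other 4.

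With edgeR's quasi-likelihood test over 674 families, 50 were called (7.42%) at a false discovery rate (FDR, Benjamini-Hochberg) under 0.05 and an absolute log2 fold change (log2FC, pre-treatment minus co-treatment controls) above 0.6. Of these, 38 (5.64%) were higher in pre-treatment controls and 12 (1.78%) lower. Among the 12 largest families only that of miR-99 was called, with log2FC 1.56 (SE 0.31, FDR 0.0464 by edgeR), while let-7, at log2FC 0.63 (SE 0.28, FDR 0.185), was not. The family of miR-19a-3p and miR-19b-3p, encoded in the miR-17-92 cluster, was called lower at log2FC -2.01, and miR-106b-3p, a family of 1, higher at 1.98. The calls sat just under the threshold. Without any 1 of the co-treatment controls none passed. Without pre-treatment control 1 there were 56 calls, 25 higher and 31 lower, and without pre-treatment control 2 there were 266, 143 higher and 123 lower. Non-overlapping groups on TMM-scaled values were found for 297 of the 674 families (44.1%).

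Grouped by position in GRCh37 (hg19), hairpins no more than 10000 bases apart on a strand formed a few dominant loci. MIR25, MIR93 and MIR106B, at chr7:99691183-99691697 on the minus strand in introns of MCM7, a gene of the replication licensing complex, gave a mean of 17.6% of the counts. MIR10B, at chr2:177015031-177015140 on the plus strand in an intron of the annotated HOXD3 gene, gave 12.2%. The cluster of MIR99B, MIRLET7E and MIR125A, at chr19:52195865-52196592 on the plus strand within SPACA6, gave 7.00, 9.48 and 6.27% in co-treatment and 23.2 and 8.58% in pre-treatment controls. Each of its 3 hairpins belongs to another large seed family, and MIR125A overlaps an annotated exon of SPACA6 while the other 2 are intronic. MIRLET7B, in an interval at chr22:46509446-46509648 with MIR4763 and outside protein-coding genes of its strand, gave 6.51%. MIR23B with MIR27B, at chr9:97847490-97847823 in introns of AOPEP, gave 4.72%, and MIR425 with MIR191, at chr3:49057581-49058142 in introns of DALRD3, gave 4.63%.

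Mature miRNAs that more than 1 hairpin can produce were rare among these counts. In the reference, 134 of the matched miRNAs have 2 or more hairpins, and together they took 0.574 to 0.754% of counts. None was among the 50 most abundant and 4 were among the 100 most abundant, the highest being miR-128-3p in place 72. The case of miR-181a, a regulator of T cell receptor and neuronal signalling, shows the pattern. Its 5p arm, identical in its 2 hairpins and usually the loaded arm, had 1, 10, 6, 4 and 7 counts, and the 3p arms that differ between the hairpins had 20564, 26215, 23541, 32248 and 42271, in the order co-treatment 1 to 3 and pre-treatment 1 and 2. For miR-26a, the shared 5p arm had 106, 214, 135, 89 and 112 counts and the hairpin-specific 3p arms 1178, 1142, 1415, 519 and 896. Likewise miR-24-3p, which has 2 hairpins that lie beside miR-23b with miR-27b and beside miR-23a with miR-27a, had 69, 125, 76, 99 and 47 counts where those 4 neighbours number among the leading miRNAs or their families.

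Not every shared arm was low. Of 16 shared arms with at least 100 counts together with their specific arms in every library, 5 were below the specific arms in all libraries (miR-181a-5p, miR-29b-3p, miR-218-5p, miR-26a-5p and miR-30c-5p) and 10 above in all. The let-7a-5p that 3 hairpins encode had 5575, 9949, 4554, 8153 and 7773 counts, and miR-92a-3p had 5347, 9116, 4336, 14401 and 6046. How the deposited counts treat reads that align to several hairpins is not given in the sources used here, and its part in these values was not tested. Such members stand in the families of let-7, miR-15, miR-19, miR-25, miR-26 and miR-125 described above.

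**Figure D3:**
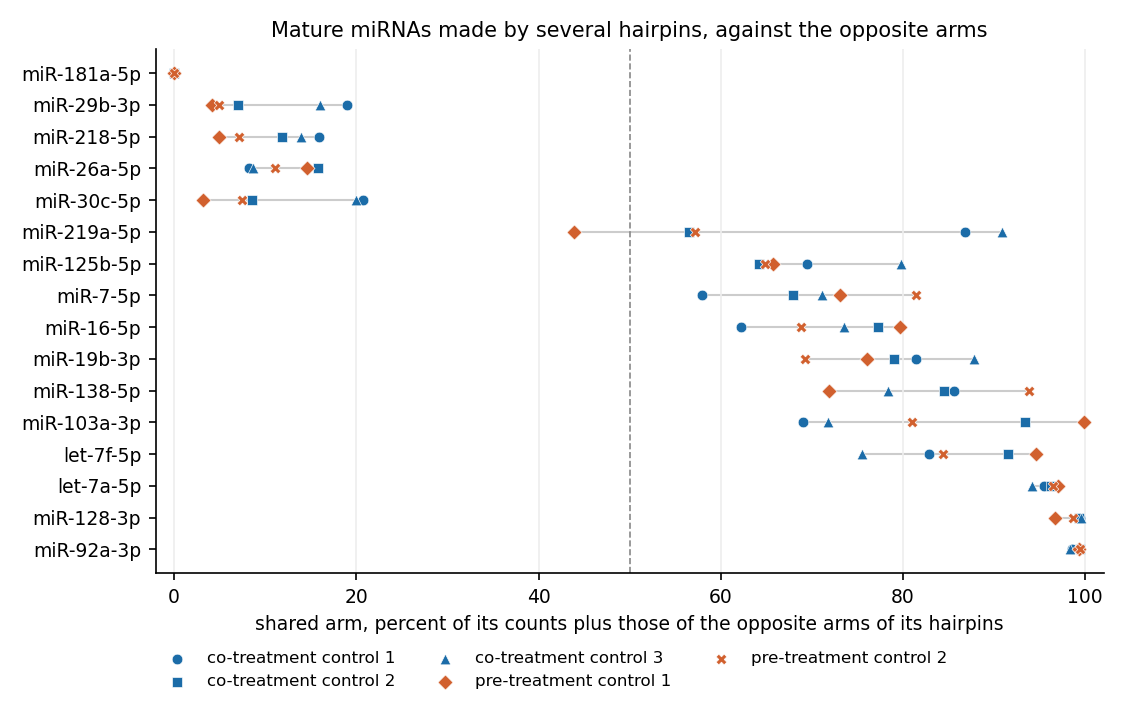
Share of the arm made by several hairpins in the sum of its counts and those of the opposite arms of the same hairpins, in percent, 1 point per library (blue, co-treatment, n = 3, and orange, pre-treatment, n = 2), with the dashed line at 50%. The 16 miRNAs fall into 5 with the shared arm below the line in every library, 10 above it in every library, and miR-219a-5p on both sides.

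Arm use was firm for most hairpins. Names with both arms in the tables numbered 830, and 261 had at least 20 counts over both arms in every library. The 5p arm held over 50% in every library for 122 of them and the 3p arm for 112, and 1 arm held over 90% in every library for 137 and over 99% for 60. The 10 most abundant hairpins kept their arm in all 5 libraries. The 5p share was 94.9 to 97.1% for miR-10b, 98.2 to 99.5% for miR-93, 99.6 to 99.9% for let-7b, 99.3 to 99.8% for miR-125a, 98.5 to 99.4% for miR-191, 98.3 to 99.2% for let-7i, 96.8 to 98.6% for miR-99b and 99.5 to 99.8% for miR-26b. The 3p arm dominated for miR-25, whose 5p share was 0.162 to 2.15%, and for miR-27b, at 0.165 to 0.286%. Over all counts, 5p arms took 69.7, 72.8 and 66.3% in co-treatment and 76.6 and 72.6% in pre-treatment controls, which did not separate the groups (exact permutation p = 0.4).

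In 27 hairpins the more abundant arm was not the same in all libraries, and 16 of them had at least 100 counts in each. The most abundant was miR-106b, which shares its transcript with miR-93 and miR-25. Its 5p arm held 51.2, 27.0 and 69.6% of both arms in co-treatment and 2.76 and 11.2% in pre-treatment controls. Behind this, miR-106b-5p had 14184, 7927 and 16602 counts against 1751 and 4108, and miR-106b-3p 13514, 21426 and 7250 against 61743 and 32468. For miR-1307 the 5p arm held 58.6, 60.5 and 66.2% against 22.2 and 29.2%. Opposite majorities in all libraries of both groups were seen in 5 hairpins: miR-1307 and miR-18b turned from 5p to 3p, and miR-483, miR-766 and miR-369 from 3p to 5p. For miR-369 the majority in co-treatment controls was small, with 150, 212 and 186 counts on 5p and 159, 259 and 190 on 3p. The others with a mixed majority were miR-423, miR-324, miR-330, miR-664a, miR-582, miR-1306, miR-548e, miR-2277, miR-6516 and miR-5699, and in all but miR-6516 the groups overlapped.

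The ratio of the arms within a library, which needs no scaling between libraries, was compared with limma on log2 of 5p over 3p counts. None of the 261 hairpins was called (0%) at an FDR under 0.05, 44 (16.9%) had an unadjusted p under 0.05, and 95 (36.4%) had groups that did not overlap. The 5 smallest p, all with FDR 0.0849 by limma, belonged to miR-1287, miR-1307, miR-195, miR-3117 and miR-664b. For miR-1307 the log2 ratio was 2.24 lower in pre-treatment controls (SE 0.42). For miR-195 the 5p share was 96.5, 96.8 and 95.4% against 86.8 and 85.1%, and for miR-1287 it was 95.9, 96.5 and 93.3% against 100 and 100%. The count of calls rose to 17 without pre-treatment control 1 and to 52 without pre-treatment control 2, where the lone library is assumed to vary like the others. The arm richer in G and C was favoured in pre-treatment controls for 120 of 203 hairpins with unequal arms (59.1%), and for 27 of the 33 of these with an unadjusted p under 0.05.

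**Figure D4:**
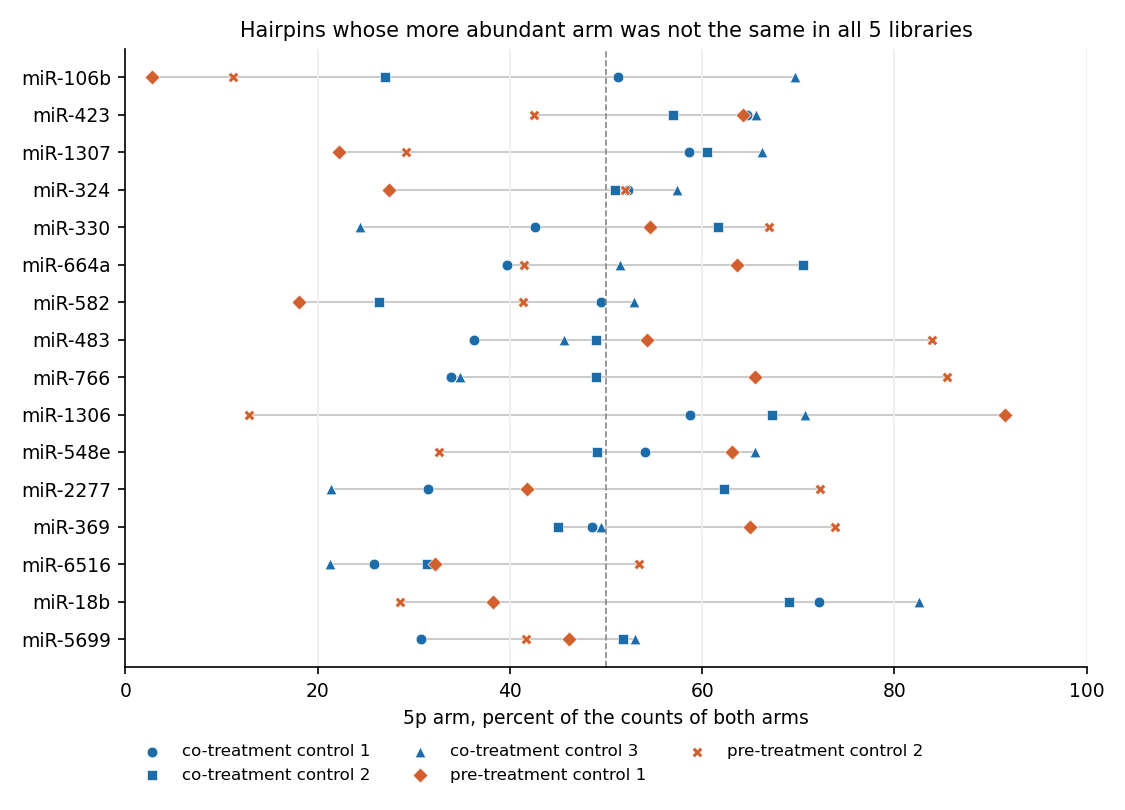
Share of the 5p arm in the counts of both arms, in percent, for the 16 hairpins whose more abundant arm was not the same in all 5 libraries and that had at least 100 counts in each, ordered by total counts (blue, co-treatment, n = 3, and orange, pre-treatment, n = 2, with the dashed line at 50%). For miR-1307, miR-483, miR-766, miR-369 and miR-18b all points of a group lie on 1 side of the line and those of the other group on the opposite side.

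The controls of the experiments were then compared miRNA by miRNA, as both were ATRA-differentiated cells without H2O2. Of 857 miRNAs tested, edgeR's quasi-likelihood test called none (0%). The smallest FDR was 0.0545 and was shared by 59 miRNAs, and 248 (28.9%) had an unadjusted p under 0.05, 121 higher (14.1%) and 127 lower (14.8%) in pre-treatment controls. At the same thresholds edgeR's exact test called 129 (15.1%), 78 (9.1%) higher and 51 (5.95%) lower, and DESeq2 called 134. Groups that did not overlap on TMM-scaled values were found for 396 miRNAs (46.2%). Leaving out pre-treatment control 1 gave 75 calls (9.38%), leaving out pre-treatment control 2 gave 302 (36.8%), and leaving out any of the co-treatment controls gave none.

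The 3 smallest p in each direction did not pass, each with FDR 0.0545 by edgeR. The miR-760 level was 82.6, 74.1 and 60.8 CPM in co-treatment and 836 and 347 CPM in pre-treatment controls, a log2FC of 3.12 (SE 0.45). The level of miR-1224-5p, a product of a short intron that is spliced without Drosha, was 95.02, 52.2 and 79.4 CPM against 320 and 436 CPM (log2FC 2.39). The third, miR-3917, had 3, 3 and 2 counts against 39 and 34, a ratio of CPM of 14.1 with a 95% counting interval of 6.77 to 33.8. Its co-treatment values were under the filter's limit of 0.864 CPM, so it was tested only through the pre-treatment controls, where it was high. Its p, ratio and separation of groups follow in part from that and are no support for a difference. Lower in pre-treatment controls were miR-374a-5p, at 12860, 9281 and 10836 CPM against 2763 and 3315 CPM (log2FC -1.78), miR-106a-5p, at 22.3, 12.6 and 17.3 CPM against 2.02 and 3.71 CPM (log2FC -2.52), and miR-489-3p, at 13.99, 15.7 and 9.34 CPM against 2.45 and 2.06 CPM (log2FC -2.44). In all 6 the groups did not overlap. With either pre-treatment control left out, miR-760, miR-1224-5p, miR-374a-5p, miR-489-3p and miR-106a-5p had an FDR under 0.05, and miR-3917 no longer passed the filter on low counts.

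Base composition moved with the direction of the difference. Of the miRNAs with an unadjusted p under 0.05 and a reference sequence, the 108 higher in pre-treatment controls had a median GC content of 59.1%, the 110 lower a median of 36.4%, and the 762 tested a median of 50%. A GC content of at least 50% was found in 94.4% of the 108 and in 9.1% of the 110, against 54.6% of all 762. Across the 762 miRNAs, which share libraries and are not independent, Pearson r of log2FC with GC content was 0.564. It was 0.246 over 712 miRNAs without pre-treatment control 1 and 0.543 over 730 without pre-treatment control 2. When each library's trend on GC content was removed, the quasi-likelihood test called 2 miRNAs, miR-760 higher, with a log2FC of 2.05 and FDR 0.0287, and miR-1291 lower. The log2FC of miR-26b-5p turned from -1.03 to 0.14 and that of miR-20a-5p went from -1.31 to -0.43, while those of miR-106a-5p and miR-489-3p were -1.94 and -2.37. That of miR-99b-5p, which leads the miR-99 family, went from 1.58 to 0.82 (FDR 0.239 by edgeR). Those of let-7b-5p, let-7i-5p and let-7e-5p went from 0.77, 0.55 and 0.50 to 1.27, 1.27 and 1.33, and that of let-7g-5p turned from -0.49 to 0.45. The part of base composition in the differences was not tested beyond this removal.

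**Figure D5:**
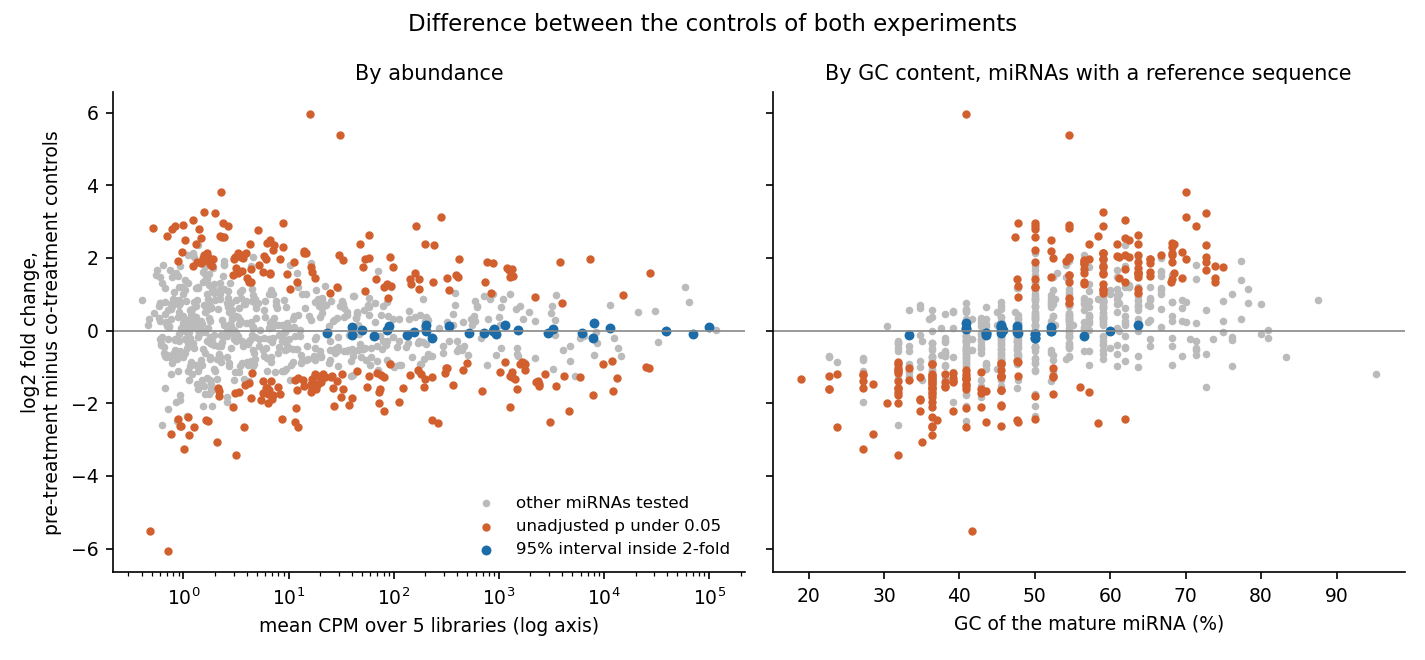
Log2FC of pre-treatment minus co-treatment controls (n = 2 and 3) for each miRNA tested, against its mean CPM on a log axis (left) and against the GC content of its mature sequence in percent (right), 1 point per miRNA. Orange points have an unadjusted p under 0.05 and lie high at high GC and low at low GC, and blue points, with a 95% interval inside a 2-fold difference, lie around 0.

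No miRNA of a list was called by the quasi-likelihood test, so the lists are described by unadjusted p values, of which 14.1% over all miRNAs were higher and 14.8% lower. The miR-17-92 cluster and its paralogs held more lower than higher miRNAs. Of 26 members tested, 12 were lower and 4 higher at an unadjusted p under 0.05, and the median log2FC was -0.87, against 0.00 over all miRNAs. The miR-17-5p level in counts was 31151, 19024 and 47681 against 4278 and 6865, and miR-19a-3p had 39674, 35617 and 71683 against 7937 and 12469. The 4 that were higher, miR-106b-3p, miR-18a-3p, miR-18b-3p and miR-25-5p, are the arms usually degraded. Each was also richer in G and C than its opposite arm, at 63.6, 56.5, 59.1 and 57.1%. The lower miR-17-5p and miR-19a-3p had 47.8 and 34.8%. The part of base composition in this split was not tested. The most abundant members were not lower to the same degree, with a log2FC of 0.11 (SE 0.35) for miR-93-5p and -0.09 (SE 0.36) for miR-25-3p. Without pre-treatment control 1 the median of the list was -0.61, with 5 members called lower and 1 higher, where 32 of all 800 tested were lower and 43 higher. Without pre-treatment control 2 it was -0.71, with 10 called lower and 5 higher, where 138 of 821 were lower and 164 higher.

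The mirtron and Drosha-independent list differed in the opposite direction. Of 18 members tested, 6 were higher and none lower at an unadjusted p under 0.05, 17 had a positive log2FC, and the median was 1.17, or 0.48 without pre-treatment control 1. Its most abundant member, miR-320a, whose hairpin bypasses Drosha, had 28887, 34911 and 13870 counts in co-treatment and 109110 and 75792 in pre-treatment controls. The related miR-320b, miR-320c and miR-320d were low and higher in both pre-treatment controls, with at most 30 counts in a co-treatment control and 21 to 187 in a pre-treatment control. As these share sequence with miR-320a and with each other, their counts are uncertain. In addition, miR-320b, miR-320d and miR-320e passed the filter on low counts only through the pre-treatment controls, where they were high. Their positive log2FC follows in part from that and is no support for a difference. The 17 positive values and the median of the list include them. The arms of miR-877, miR-1224, miR-1226, miR-1227, miR-1229 and miR-1236 had a GC content of 54.55 to 82.35%. The median over all miRNAs tested was 50%. The part of base composition in the difference of this list was not tested.

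For miR-99 and miR-125, 2 of 11 members tested were higher (miR-99b-5p and miR-125a-3p), none lower, and the median log2FC was 0.64. Of 19 let-7 and miR-98 members, none was higher and 3 were lower, with a median of -0.12, although the summed let-7 share was larger in both pre-treatment controls. The DLK1-DIO3 list, the imprinted cluster that is silent in many tumours, was low, at 0.0506 to 0.104% of counts, with 33 of 91 members at most at 3 counts everywhere. Of its 44 members tested, 2 were higher (miR-370-3p and miR-485-5p) and 6 lower, and its median of -0.55 became -0.23 without pre-treatment control 1 and -1.11 without pre-treatment control 2. Some members, such as miR-656-3p and miR-539-5p, passed the filter on low counts only through the co-treatment controls, where they were high. Others, such as miR-370-5p, needed the pre-treatment controls to pass. The median of the list depends in part on such members. In the neuronal list 3 were higher (miR-128-1-5p, miR-212-5p and miR-219a-1-3p) and 3 lower (miR-137, miR-153-5p and miR-338-3p). The remaining lists held few such miRNAs. There were 2 of 11 in miR-30 (miR-30d-5p and miR-30c-2-3p, higher), 1 of 9 in miR-181 (miR-181a-2-3p, higher), 1 of 6 in the neuroendocrine list (miR-7-1-3p, lower) and none of 5 in the HOX list. Of 8 miRNAs annotated on snoRNA, miR-1248 and miR-1291 were lower and miR-3651 was higher. However, miR-3651 passed the filter on low counts only through the pre-treatment controls, where it was high, so its p is no support for a difference. Among the marker lists, miR-1 (muscle), miR-126-5p (endothelial) and miR-199b-5p (fibroblast) were lower, and miR-223-3p and miR-205-5p higher. The latter 2 rest mainly on pre-treatment control 1, at 77.9 and 145 CPM, against 0.549 and 4.39 CPM in pre-treatment control 2. For miR-223-3p the groups overlapped, with 0.389 to 1.21 CPM in co-treatment controls, and it passed the filter on low counts only with pre-treatment control 1.

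What was stable between the experiments was asked with intervals, since a p that misses the threshold does not show sameness. By limma on log2 CPM, the 95% interval of the difference lay inside 2-fold for 29 of 857 miRNAs (3.38%), 22 of them with a mean of at least 100 CPM. A fit of the 200 miRNAs of that level alone gave 21, of which 11 were among the 29. They included 3 of the 6 leading miRNAs: miR-93-5p (interval -0.70 to 0.90 on the log2 scale), miR-25-3p (-0.91 to 0.73) and miR-191-5p (-0.87 to 0.83). The interval of let-7c-5p was -0.65 to 0.78, and its level was 11572, 12136, 10519, 11500 and 11262 CPM over the 5 libraries. That of miR-34a-5p, a p53 target, was -0.95 to 0.51 with 8926, 8484, 7829, 5938 and 8010 CPM, and that of miR-30e-5p was -0.52 to 0.91 with 8937, 7474, 7025, 9328 and 7693 CPM. In the fit of the 200, miR-25-3p, let-7c-5p and miR-34a-5p were inside 2-fold, and miR-93-5p, miR-191-5p and miR-30e-5p were not. The 10 miRNAs of at least 100 CPM with the smallest range over all 5 libraries were miR-17-3p, let-7c-5p, miR-30e-5p, miR-181c-5p, miR-629-5p, miR-675-3p, miR-34a-5p, miR-454-5p, miR-181d-5p and miR-324-5p, with ranges from 0.27 to 0.54 on the scale of log2 CPM after TMM scaling. For miR-454-5p and miR-324-5p the interval passed 2-fold. The count of 29 rests on all 5 libraries: without a single co-treatment control it was 2, 1 or 6, without pre-treatment control 1 it was 25, and without pre-treatment control 2 it was 13. Of the miRNAs named here, let-7c-5p stayed inside 2-fold with each left-out library other than co-treatment control 2.

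Pre-treatment and co-treatment were also compared in the 6 H2O2 libraries, which share no library with the controls. This is not a repeat of the control contrast, as exposure differed too, at 72 h before ATRA against 7 days with ATRA. Experiment and exposure cannot be told apart in these 6 libraries. There, edgeR's quasi-likelihood test called 152 of 856 miRNAs (17.8%), 71 higher and 81 lower in pre-treatment. Of 789 miRNAs tested in both, 270 (34.2%) differed in the same direction as in the controls, and of the 233 with an unadjusted p under 0.05 in the controls, 59 (25.3%) did. The difference between the contrasts passed an FDR under 0.05 as an interaction over all 11 libraries for 262 of 857 miRNAs (30.6%). The log2FC of miR-137 was -0.99 in controls and 1.01 in H2O2 libraries, that of miR-99b-5p was 1.58 and -0.53, and that of miR-26b-5p was -1.03 and 0.71. Pearson r of log2FC with GC content was -0.342 over 700 miRNAs in the H2O2 libraries, opposite in sign to that in the controls. In both contrasts miR-23a-3p was lower in pre-treatment, at -0.84 and -0.72, and miR-30d-5p higher, at 0.98 and 0.76.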

How the data were processed

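The authors trimmed reads of QIAseq miRNA libraries (NextSeq 500) with cutadapt 2.10, checked them with FastQC 0.11.8, aligned them to hg19 with Bowtie2 2.4.1 and made a count of each mature miRNA by HTSeq 0.7.2. The deposited values are these counts without normalization. Use of molecular identifiers, the miRBase release and the treatment of reads with several alignments are not given in the sources used here. The authors' tables of fold changes and p-values from edgeR 3.6.1 hold their own comparisons and were not used.

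Both count tables were joined by miRNA name and grouped by their labels. The replicates are described as biological, with no further detail of the cultures, and p-values measure the spread between these libraries. Totals are given in the report, and limits of detection cover counting error only. miRNAs and seed families were compared between control groups by edgeR 4.0.16 (quasi-likelihood, TMM) in R 4.3.3, with FDR under 0.05 and absolute log2FC above 0.6, after a filter that needed a CPM above 0.864 in 2 or more libraries (the CPM of 5 counts in the shallowest). Arm ratios (0.5 added to each arm) and 2-fold intervals used limma 3.58.1, and single values an exact permutation test, two-sided. Alternatives were other scalings and filters, DESeq2 1.42.0, edgeR's exact test, all 11 libraries, an offset for GC content (lowess, span 0.5), the replicate block and left-out libraries. Scripts were tested on simulated data.

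Seeds, GC content and hairpin numbers come from RefSeq mature sequences, and positions and host genes from a GENCODE annotation lifted to GRCh37. The miRNAs named are the 20 most abundant, the 12 largest families, the 10 most abundant hairpins with both arms, those whose leading arm changed, the smallest p values, the 10 least variable miRNAs, and members of lists. miR-223-3p, miR-205-5p and the shared arms were chosen after their values were seen. The members and lists were chosen with earlier results of these data known.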

Additional observations from a re-analysis of the deposited data

Results flagged for a closer look

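For 12 of the 15 miRNAs whose difference between the experiments was compared between controls and H2O2 libraries, the interaction in edgeR's quasi-likelihood fit of all 11 libraries passed an FDR under 0.05. Over all miRNAs it passed for 262 of 857 (30.6%). The 15 were those with the smallest p between the control groups, and those of the 20 most abundant whose control groups did not overlap. The interaction uses the same control values, so a high share among the 15 was built in by this choice. In addition, miR-3917 passed the filter on low counts only through the pre-treatment controls. The interaction values are the log2FC of pre-treatment minus co-treatment in controls minus the same in H2O2 libraries. Positive values were 3.68 for miR-760 (FDR 0.000372), 3.80 for miR-3917 (FDR 0.00503), 2.72 for miR-1224-5p (FDR 0.00101), 2.15 for miR-99b-5p (FDR 0.00133) and 1.19 for let-7e-5p (FDR 0.0181). Negative values were -2.15 for miR-374a-5p (FDR 0.00101), -1.84 for miR-489-3p (FDR 0.0224), -2.58 for miR-106a-5p (FDR 0.00556), -1.69 for miR-26b-5p (FDR 0.00481), -1.93 for miR-137 (FDR 0.00296), -1.63 for miR-20a-5p (FDR 0.00661) and -1.70 for miR-199b-5p (FDR 0.0291). This contrast is also that of the response to H2O2 between the experiments, and batch cannot be told apart from either. No control group held enough libraries for a test of outlying values.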

How the results depend on the processing

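The count of miRNAs called between the control groups was 0, and became 65 with DESeq2 size factors, 62 with the filter in all 5 libraries, 115 with no filter, 129 with edgeR's exact test, 134 with DESeq2, 246 with all 11 libraries in the fit and 2 with the GC offset, and 0 to 302 with a library left out. It stayed 0 with library size scaling, without a log2FC threshold and in a robust fit chosen after seeing the data. The families called (50) became 6 with library size, 80 with no filter, 4 with seeds of bases 2 to 7, 2 without miRNAs of several hairpins (chosen after seeing the data), and 0 to 266 with a library left out. Arm calls ranged from 0 to 52 and calls in the H2O2 libraries from 86 to 219 with a library left out. The miRNAs inside 2-fold (29) became 63 with a 90% interval and ranged from 1 to 25 with a library left out. The difference in the share of the 10 leading miRNAs was 5.09 points for seed families and 6.07 to 10.0 with a library left out, that of 5p arms 3.01 to 7.01, and that in miRNAs detected went from 22.5 to -65.0 with 1 count as the limit. Among named miRNAs whose groups did not overlap, miR-26b-5p changed sign, to 0.14 with the GC offset. Of those whose groups overlapped, the larger changes of sign were miR-125a-5p (1.19 to -0.42), miR-342-3p (0.70 to -0.53), miR-143-3p (-0.21 to 0.49), miR-25-3p (-0.09 to 0.38), miR-27b-3p (-0.31 to 0.27) and let-7g-5p (-0.49 to 0.10) without pre-treatment control 1, miR-10b-5p (0.00 to -0.79), let-7i-5p (0.55 to -0.29) and miR-191-5p (-0.01 to 0.31) without pre-treatment control 2, and let-7g-5p (to 0.45) with the GC offset. Whether the replicate numbers pair the controls could not be decided. Deviations of same-numbered controls correlated at 0.134 and -0.213. With 2 pre-treatment controls their deviations mirror each other, so a co-treatment control's correlation with 1 is fixed as minus that with the other. With the replicate block the calls were 0 for miRNAs, 0 for families, 0 for arms and 153 in the H2O2 libraries, and 0 miRNAs lay inside 2-fold. The median log2FC over all miRNAs was 0.00 with TMM, -0.07 with library size and 0.10 with DESeq2 size factors. The causes of these shifts were not tested. miRNAs near 3 counts are limited by depth.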
